A study of Mus musculus with 8 samples.

Results

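The 10 genes described here belong to transforming growth factor beta (TGF-β) signalling. They were taken by symbol from the raw count tables of 8 RNA-seq libraries of mouse bone marrow derived macrophages (BMDMs), and they make up 10 of the 53735 gene symbols listed there. Tgfb1 and Tgfb2 encode ligands, Thbs1 an activator of latent ligand, Tgfbr1 and Tgfbr2 the receptors, Smad2, Smad3 and Smad4 the transcription factors that carry the signal, Smad7 the inhibitory SMAD, and Tgfbi a secreted matrix protein induced by the pathway. Of these, 9 had enough reads to be tested, among 14418 tested genes, and Tgfb2 did not.

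BMDMs came from 6 month old male mice that all lacked Apoe and had all been infused with angiotensin II (Ang II) by osmotic minipump for 7 days. The labels give the dose as 1.44 mg/kg/day, beside a rate per minute that does not equal it, so the dose is uncertain. WT mice were Mkl1+/+, Apoe-/- and KO mice were Mkl1-/-, Apoe-/-, a global deletion, both on a C57BL/6J background. Bone marrow was taken after the infusion and the cells were grown into macrophages for 7 days in culture, so no uninfused control was included. Experiment 1 held WT libraries 1 and 2 and KO libraries 5 and 6, and experiment 2 held WT libraries 3 and 4 and KO libraries 7 and 8. The labels call each experiment a batch and do not say that each library was a separate mouse, so p-values measure the spread between libraries. The question put to these data was how loss of Mkl1, a coactivator of serum response factor, altered the mRNA of these genes within each experiment.

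TGF-β is secreted in a latent complex from which integrins, proteases or thrombospondin 1 can release it. Released ligand joins the type II and type I receptors, and the type I receptor phosphorylates SMAD2 and SMAD3, which enter the nucleus with SMAD4 and switch target genes on or off. SMAD7 is itself a target and blocks the receptor, and macrophages are known both as a source of TGF-β1 and as cells that respond to it.

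The libraries held between 33977799 and 41584540 counts. Mkl1, the targeted gene, had 25.6 and 27.1 CPM (reads of the gene scaled to a common total by TMM) in WT and 19.5 and 20.9 CPM in KO of experiment 1, and 26.8 and 29.6 CPM in WT and 14.6 and 10.4 CPM in KO of experiment 2. It was lower in KO in both, with log2 fold changes of -0.39 (SE 0.08, adjusted p = 0.00381) and -1.17 (SE 0.19, adjusted p = 0.0218, quasi-likelihood test of edgeR, here and throughout, with p-values adjusted by Benjamini and Hochberg), and its reads were not absent. Genotypes are given as labelled throughout. The Mkl1 reads went in the direction of the labels, but 28.1% of all tested genes were also lower in KO in experiment 1 and 8.29% in experiment 2. A lower level of Mkl1 therefore cannot by itself verify the labels. Apoe reads, between 2.82 and 22.7 CPM, were likewise present in every library although all mice are labelled Apoe-/-. They were higher in KO in experiment 1 (log2 fold change 1.40, SE 0.20, adjusted p = 0.00194) and over both experiments (1.38, SE 0.30, adjusted p = 0.0398). In experiment 2 alone the log2 fold change was 1.33 and did not pass (SE 0.48, adjusted p = 0.125). The macrophage label was matched by its markers: the 10 macrophage genes summed to between 16005 and 36484 CPM, while the summed neutrophil, dendritic and lymphocyte lists stayed under 3 CPM. In experiment 1, 28.1% of all tested genes were lower and 27.0% higher in KO, against 8.29% and 7.52% in experiment 2, and these shares are the background for the counts given for the TGF-β genes. Upper-quartile scaling in place of TMM moved the higher calls of experiment 1 from 49.0% to 59.8% of all calls. All 8 libraries are bulk RNA, in which fewer cells of a type and less RNA per cell cannot be told apart.

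In experiment 1, Tgfbr2, Smad7, Thbs1 and Tgfbi were higher and Smad2 and Smad3 lower in KO, which is 4 higher and 2 lower of 9 tested. In experiment 2, Smad3 and Smad7 were higher and none of the 9 was lower, with 4 higher and 0 lower at an unadjusted p under 0.05 (edgeR), a level at which 17.3% of all tested genes were higher and 16.8% lower, and DESeq2 and limma-voom also called 2 higher and 0 lower. Smad7 alone moved the same way past the threshold in both experiments, as did 4.38% of all tested genes, and Smad3 alone moved in opposite directions, as did 6.34%. The median log2 fold change of the 9 genes was 0.00 in experiment 1 and 0.21 in experiment 2, against 0.01 in both over all tested genes. The size of the KO effect differed between the experiments for 5 of the 9, namely Smad2, Smad3, Smad4, Thbs1 and Tgfbi (interaction test of edgeR), where 41.6% of all tested genes differed.

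**Figure D1:**
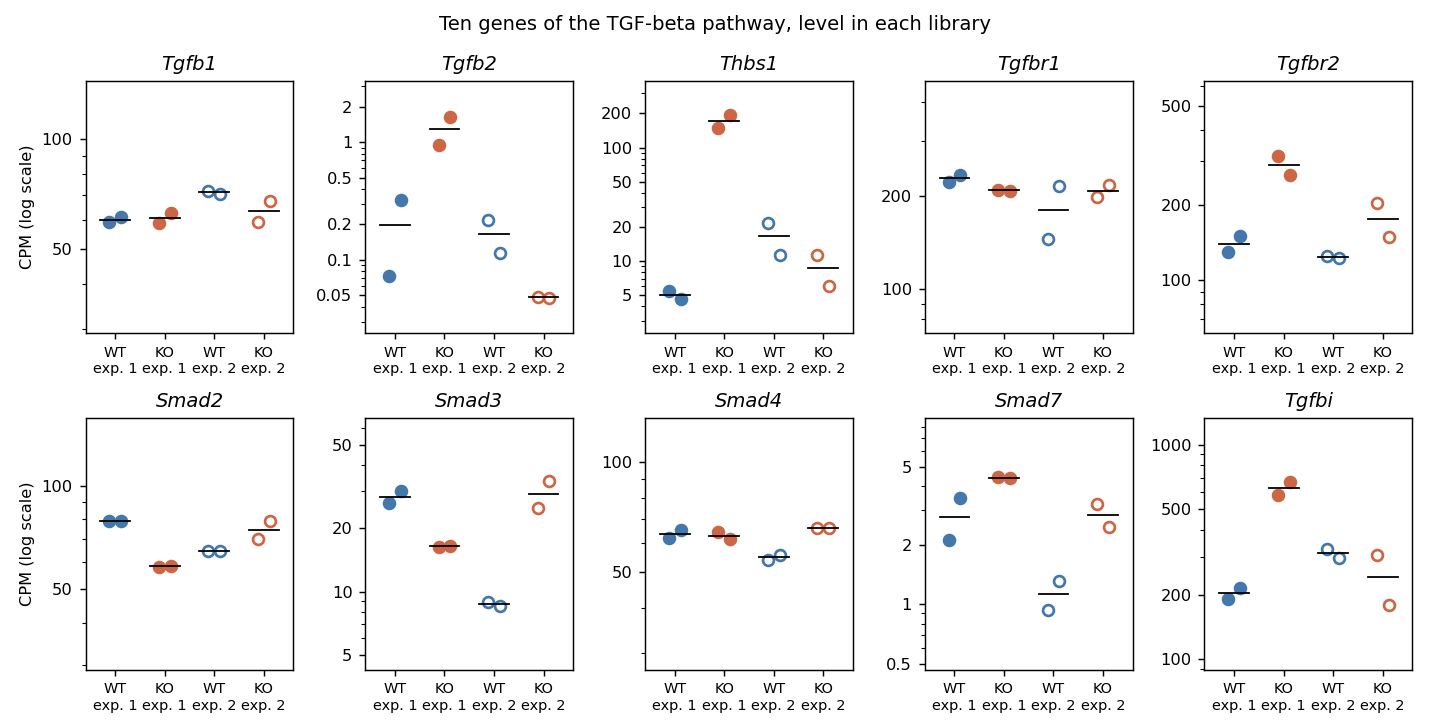
Level of each of the 10 genes in each library, in CPM on a log axis, for WT (blue) and KO (orange) of experiment 1 (filled points) and experiment 2 (open points), with a line at the mean of the 2 libraries of a group. Thbs1 stood at 150 and 192 CPM in KO of experiment 1 and at 21.8 CPM or less elsewhere, and Smad3 was high in WT of experiment 1 and KO of experiment 2.

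Set per length of merged exons, the order of levels ran over several orders of magnitude. In WT, Tgfbi stood highest with 68.4 ± 17.3 CPM per kb (SD, n = 4), followed by Tgfbr1 with 31.3 ± 6.18, Tgfbr2 with 16.1 ± 1.58, Smad4 with 16.0 ± 1.44 and Tgfb1 with 13.04 ± 1.32 CPM per kb. Smad2 had 8.20 ± 0.96, Smad3 3.34 ± 2.05, Thbs1 1.79 ± 1.31, Smad7 0.433 ± 0.247 and Tgfb2 0.0315 ± 0.0193 CPM per kb (SD, n = 4). Among neighbours in this order, only Tgfbr2 with Smad4 and Smad3 with Thbs1 had overlapping ranges over the 4 WT libraries. The means join both experiments, and per length Thbs1 stood above Smad3 in WT libraries 3 and 4 of experiment 2. In KO, Thbs1 rose to the fifth place, with 14.8 ± 15.7 CPM per kb, an SD above its mean, with high values in both KO libraries of experiment 1 only. That place came from the mean over both experiments and held in neither, being higher in experiment 1 and lower in experiment 2. Of the 10 genes, Smad4 and Tgfb1 varied least over all 8 libraries, each by 1.23 times from the lowest to the highest, and Thbs1 varied most, by 41.2 times.

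Tgfb1, the main TGF-β ligand of leukocytes (GRCm38, chr7:25687002-25705077), had 59.0 and 61.0 CPM in WT and 58.7 and 62.6 CPM in KO of experiment 1. In experiment 2 it had 72.1 and 70.8 CPM in WT and 59.3 and 67.4 CPM in KO. The genotypes overlapped in experiment 1, and in experiment 2 both KO libraries lay below both WT libraries by a small margin. Neither difference passed the test, with log2 fold changes of 0.00 (SE 0.06, adjusted p = 0.965) and -0.17 (SE 0.11, adjusted p = 0.333).

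Tgfb2, a second ligand (chr1:186622792-186705989), was close to undetected, with 3, 11, 8 and 4 counts in WT libraries 1 to 4. KO libraries 5 and 6 of experiment 1 held 35 and 66 counts, or 0.947 and 1.65 CPM, and KO libraries 7 and 8 of experiment 2 held 2 counts each, under the 3 counts treated as a floor. In experiment 1 the KO level was 7.01 times that of WT by summed counts (95% exact interval 3.99 to 13.3, for counting error only), and in experiment 2 it was 0.287 times that of WT (95% exact interval 0.0675 to 0.948), on 12 counts in WT and 4 in KO. A fit without the filter on low counts gave Tgfb2 a log2 fold change of 2.71 in experiment 1 (SE 0.42, adjusted p = 1.49e-09, edgeR) and an adjusted p of 0.338 in experiment 2. In experiment 1 that fit gave far smaller p-values than the filtered fit. For Thbs1 the adjusted p was 1.44e-242 against 1.58e-05 (edgeR). The p-values with no filter, here and below, are therefore not comparable with those of the main fit. Its exons share 124 bases with an antisense gene, Gm29491, and whether the counting used strand was not stated.

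Thbs1 (chr2:118111876-118127133) encodes thrombospondin 1, a matricellular glycoprotein that can activate latent TGF-β. It had 5.43 and 4.66 CPM in WT and 150 and 192 CPM in KO of experiment 1. In experiment 2 it had 21.8 and 11.4 CPM in WT and 11.3 and 6.07 CPM in KO. Both KO libraries stood far above WT in experiment 1, while in experiment 2 KO library 7 lay just under WT library 4 and KO library 8 lower still. The KO level was 33.5-fold that of WT in experiment 1 (log2 fold change 5.06, SE 0.17, adjusted p = 1.58e-05), and the log2 fold change in experiment 2 was -0.94 (SE 0.43, adjusted p = 0.202). With each library left out, the value of experiment 2 ranged from -1.45 to -0.40. The KO effects of the experiments differed by -6.02 on the log2 scale, taken as experiment 2 minus experiment 1 here and for the genes that follow (SE 0.53, adjusted p = 0.000381 in the interaction test of edgeR). Its exons share 208 bases with Gm29233, a noncoding gene on the other strand.

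Tgfbr1 (chr4:47353222-47414931), the type I receptor kinase, had 222 and 234 CPM in WT and 209 and 208 CPM in KO of experiment 1. In experiment 2, WT library 3 had 145 CPM and WT library 4 216 CPM, and KO had 198 and 217 CPM. KO lay just below WT in experiment 1, and the genotypes overlapped in experiment 2. The log2 fold changes were -0.14 (SE 0.06, adjusted p = 0.0670) and 0.20 (SE 0.21, adjusted p = 0.543). The first passed the threshold when no filter on low counts was used (adjusted p = 0.0206, edgeR). Without WT library 4, the KO effects of the experiments differed by 0.65 (adjusted p = 0.00887), against 0.33 (SE 0.24, adjusted p = 0.295) with all libraries and 0.10 (adjusted p = 0.565) without WT library 3. Without library 3 the log2 fold change of experiment 2 was -0.06.

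Tgfbr2 (chr9:116084293-116175360), the type II receptor that binds ligand first, had 129 and 151 CPM in WT and 315 and 265 CPM in KO of experiment 1. Experiment 2 gave 125 and 123 CPM in WT and 203 and 148 CPM in KO. Every KO library was above every WT library of its own experiment, and the WT levels of the experiments were close to each other. Tgfbr2 was 2.05-fold higher in KO in experiment 1 (log2 fold change 1.04, SE 0.11, adjusted p = 0.000498), and 0.50 higher on the log2 scale in experiment 2, which did not pass (SE 0.17, adjusted p = 0.112). The second value passed with a spread shared over all 4 groups (adjusted p = 0.0473) and with no filter (adjusted p = 0.0472). A difference between the experiments was not shown, with an interaction of -0.55 (SE 0.23, adjusted p = 0.0923), which passed without KO library 7 (-0.75, adjusted p = 0.0150) and with no filter (-0.52, adjusted p = 0.00936).

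Over both experiments with the experiment as an additive term, Tgfbr2 was the only one of the 9 tested genes called, with a log2 fold change of 0.78 (SE 0.16, adjusted p = 0.0365). At the same threshold 3.72% of all tested genes were higher and 3.41% lower. None of the 9 was lower, also at an unadjusted p under 0.05 (12.1% of all tested genes) and with DESeq2 or limma-voom, and DESeq2 added Smad7 to the genes that were higher. The call of Tgfbr2 was lost without any 1 of the libraries other than KO library 8, with adjusted p between 0.0579 and 0.108, and without the experiment term (0.161). Smad7 had an adjusted p of 0.0661 in this fit, and Thbs1, whose effects were unequal in the experiments, had 0.486.

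Smad2, a receptor-activated SMAD, stood at 79.3 CPM in both WT libraries of experiment 1, against 58.2 and 58.5 CPM in KO. Experiment 2 gave 64.7 and 64.6 CPM in WT and 70.3 and 79.2 CPM in KO. The replicates of experiment 1 nearly coincided, KO lay below WT there, and KO lay above WT in experiment 2. Smad2 fell by 0.45 on the log2 scale in experiment 1 (SE 0.06, adjusted p = 0.000276), and its log2 fold change in experiment 2 was 0.21 (SE 0.11, adjusted p = 0.247). The effects differed by 0.65 (SE 0.11, adjusted p = 0.00368).

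Smad3 (chr9:63646767-63757994), the receptor-activated SMAD that binds DNA directly, had 26.4 and 30.1 CPM in WT and 16.3 and 16.5 CPM in KO of experiment 1. In experiment 2 it had 8.96 and 8.51 CPM in WT and 24.9 and 33.5 CPM in KO. KO was below WT in the first experiment and above it in the second with no overlap in either, and the WT levels of the experiments lay further apart than those of KO. The KO level was 0.576 times that of WT in experiment 1 (log2 fold change -0.80, SE 0.09, adjusted p = 0.000170) and 3.34 times that of WT in experiment 2 (log2 fold change 1.74, SE 0.18, adjusted p = 0.00913). Its effects differed by 2.53 on the log2 scale (SE 0.21, adjusted p = 0.000323), and both calls and the difference held without any 1 library and under every other alternative run.

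Smad4, the common partner of the activated SMADs, had 62.3 and 65.3 CPM in WT and 64.3 and 61.7 CPM in KO of experiment 1. Its levels in experiment 2 were 54.1 and 55.7 CPM in WT and 66.3 CPM in both KO libraries. The genotypes overlapped in experiment 1, and KO was above WT in experiment 2. Neither log2 fold change passed, at -0.03 (SE 0.06, adjusted p = 0.705) and 0.27 (SE 0.10, adjusted p = 0.121), and a spread shared over all 4 groups brought the second past the threshold (adjusted p = 0.0222). Their difference of 0.29 (SE 0.10) sat at the threshold, with an adjusted p of 0.04997, and it was lost without any 1 library other than KO library 7, with DESeq2 (0.0818), with limma-voom (0.0535), with upper-quartile scaling (0.0948) and with no filter (0.193).

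Smad7, the inhibitory SMAD, was low, with 2.11 and 3.46 CPM in WT and 4.44 and 4.37 CPM in KO of experiment 1. Its levels in experiment 2 were 0.932 and 1.32 CPM in WT and 3.22 and 2.47 CPM in KO. Every KO library was above every WT library of its own experiment, although WT library 2 stood above both KO libraries of experiment 2. Smad7 was higher in KO by 0.66 (SE 0.24, adjusted p = 0.0478) and 1.33 (SE 0.32, adjusted p = 0.0479) on the log2 scale. Both calls were marginal. The first was lost without WT library 1 (0.34, adjusted p = 0.220), KO library 5 (adjusted p = 0.119) or KO library 6 (0.110), with DESeq2 (0.0923) and with a shared spread (0.0994), and the second without any 1 of its libraries (adjusted p between 0.0713 and 0.181).

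Tgfbi (chr13:56609523-56639562), a secreted protein that binds integrins and collagens, was the most abundant of the 10 genes per length. It had 191 and 215 CPM in WT and 583 and 667 CPM in KO of experiment 1. In experiment 2 it had 328 and 298 CPM in WT and 307 and 179 CPM in KO. KO was far above WT in experiment 1, whereas in experiment 2 KO library 7 lay between the WT libraries and KO library 8 below them. Tgfbi was 3.06-fold higher in KO in experiment 1 (log2 fold change 1.61, SE 0.09, adjusted p = 8.48e-06), with a log2 fold change of -0.36 in experiment 2 (SE 0.27, adjusted p = 0.400). The value of experiment 2 ranged from -0.80 to -0.03 with each library left out. The effects differed by -1.99 on the log2 scale (SE 0.32, adjusted p = 0.00298).

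**Figure D2:**
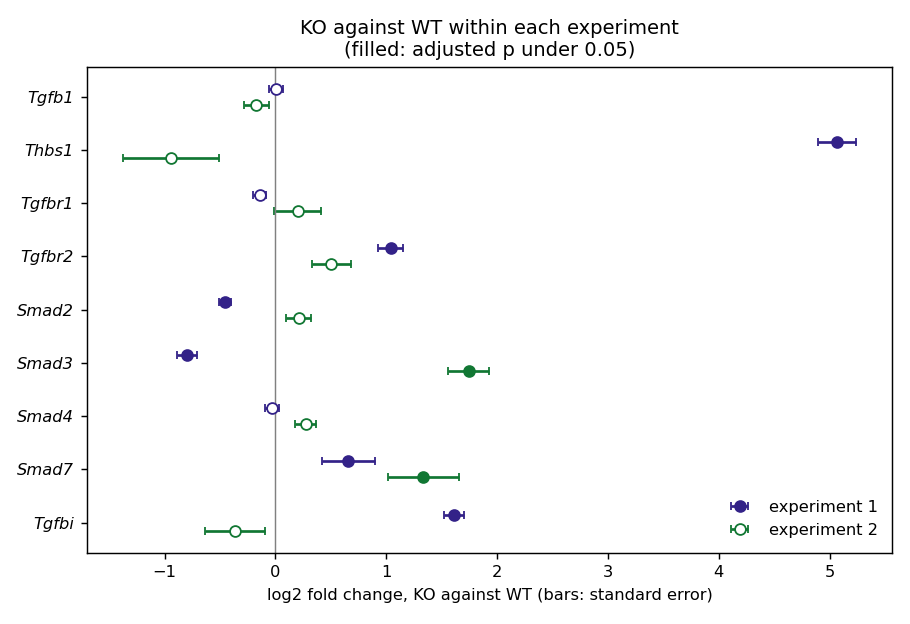
Log2 fold change of KO against WT for the 9 tested genes in experiment 1 (purple) and experiment 2 (green), with bars for the standard error and filled points for an adjusted p under 0.05. Thbs1 reached 5.06 in experiment 1 and -0.94 in experiment 2, and Smad3 was past the threshold on opposite sides of 0.

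Promoter sequence is shown for 3 of the called genes, namely Tgfbr2, higher in KO in experiment 1, Tgfbi, whose profile lay nearest to that of Tgfbr2 among the 9 tested genes, and Smad3, which changed in opposite directions. The RefSeq promoter table on GRCm38.p6 gave windows for 6 of the 10 genes (7 windows), and none for Thbs1, Smad2, Smad4 and Smad7. The stretch of each window upstream of the annotated gene start is printed 5′ to 3′ on the strand of the gene, with the SMAD binding element CAGAC, or its reverse complement GTCTG, in capitals. The Tgfbr2 stretch is chr9:116175361-116175613 on the minus strand, the Tgfbi stretch chr13:56609336-56609522 on the plus strand, and the Smad3 stretch chr9:63757995-63758244 on the minus strand.
Tgfbr2: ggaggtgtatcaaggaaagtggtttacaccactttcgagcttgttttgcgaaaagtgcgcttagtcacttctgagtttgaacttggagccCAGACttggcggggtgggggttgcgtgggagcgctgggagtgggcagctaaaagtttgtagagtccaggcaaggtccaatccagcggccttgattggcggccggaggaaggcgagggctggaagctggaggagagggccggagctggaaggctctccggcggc
Tgfbi: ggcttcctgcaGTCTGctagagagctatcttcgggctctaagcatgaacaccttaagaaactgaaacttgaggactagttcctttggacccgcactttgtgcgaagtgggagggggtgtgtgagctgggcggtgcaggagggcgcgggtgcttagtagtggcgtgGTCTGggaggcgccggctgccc
Smad3: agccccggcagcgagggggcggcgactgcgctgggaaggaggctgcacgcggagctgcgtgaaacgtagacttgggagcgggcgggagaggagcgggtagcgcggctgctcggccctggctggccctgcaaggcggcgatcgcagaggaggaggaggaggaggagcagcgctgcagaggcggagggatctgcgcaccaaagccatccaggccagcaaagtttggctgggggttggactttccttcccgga

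The printed stretch of Tgfbr2 held 1 CAGAC element, that of Tgfbi 2 and that of Smad3 none, where 49.6% of all 32851 promoter windows of 300 bases held at least 1 on either strand. The GC box GGGCGG was found at 2 places in the Smad3 stretch, at 1 in that of Tgfbi and not in that of Tgfbr2, and 35.7% of all windows held it. The CArG box bound by serum response factor occurred in 1.63% of all windows and the AP-1 element TGANTCA in 7.81%, and neither was in any of the 7 windows of the 10 genes. These matches describe the letters of these windows only.

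For each tested gene, the gene whose centred log2 CPM profile over the 8 libraries was nearest is named as a description. Thbs1 was nearest to Cyr61, which encodes another matricellular protein, at a root mean square distance of 0.455, and Tgfbi to Efemp2, which encodes an elastic fibre protein, at 0.141. Smad3 was nearest to Arhgap26 (0.0845), Tgfbr2 to Tef (0.0927), Smad7 to Sbk1 (0.158), Tgfbr1 to Depdc7 (0.0646), Smad4 to Ccdc82 (0.0340), Smad2 to Matr3 (0.0303) and Tgfb1 to Sec11a (0.0222). The small distances of Tgfb1, Smad2 and Smad4 went with the small spread of these genes, whose log2 CPM had SDs of 0.12, 0.19 and 0.11 over the 8 libraries.

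The list of latency and activation, genes that hold TGF-β latent or release it and the third ligand Tgfb3, had 24 genes, of which 21 were tested. In experiment 1, 13 were higher and 3 lower in KO, with a median log2 fold change of 1.17, and in experiment 2, 1 was higher and 2 lower (3 and 5 by DESeq2), with a median of -0.10. By edgeR, 27.0% of all tested genes were higher and 28.1% lower in experiment 1, and 7.52% and 8.29% in experiment 2. The 10 fibroblast markers described further on moved with this list, from a sum of 6.47 and 15.2 CPM in WT to 233 and 307 CPM in KO of experiment 1, and their part in it was not tested. Ltbp1, Fbn1, Thbs2 and Mmp2, genes of the extracellular matrix, were among the 13 that were higher, with log2 fold changes of 6.12 (SE 0.29), 4.10 (SE 0.24), 3.90 (SE 0.38) and 3.72 (SE 0.34). Mmp9 was among the 3 that were lower, from 7.18 and 4.25 CPM in WT to 0.730 and 0.700 CPM in KO of experiment 1 (log2 fold change -3.01, SE 0.31). Lrrc32, which anchors latent TGF-β at the cell surface, had 0.123 and 0.147 CPM in WT and 8.14 and 9.07 CPM in KO of experiment 1 (log2 fold change 5.96, SE 0.25, adjusted p = 1.70e-06), and 0.576 CPM or less in every library of experiment 2. Among the integrin subunits that bind the latent complex, Itgb3 had 4.94 and 4.49 CPM in WT and 29.2 and 28.3 CPM in KO of experiment 1. Itgb5 was higher in both experiments, from 92.8 and 112 CPM to 286 and 267 CPM in the first and from 79.2 and 74.6 CPM to 130 and 129 CPM in the second. Its log2 fold changes were 1.42 (SE 0.10, adjusted p = 3.86e-05) and 0.75 (SE 0.10, adjusted p = 0.0160). Itgb8 was instead high only in WT of experiment 2, with 9.02 and 5.35 CPM there and 0.325 CPM or less in every other library. Plaur, the urokinase receptor, was lower in both experiments, by log2 fold changes of -1.64 (SE 0.17) and -0.59 (SE 0.13, adjusted p = 0.0434).

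Other ligands of the family and their binding proteins were mostly too low to test, with 9 of 20 tested, of which 5 were higher and 1 lower in experiment 1. Of all tested genes, 27.0% were higher and 28.1% lower in that experiment. The 5 were Inhba, Bmp1, Fstl1, Fstl3 and Grem1, in KO libraries whose fibroblast marker sum was 233 and 307 CPM, and the part of other cells was not tested. Bmp1 stood in this list although it encodes a protease, neither a ligand nor a binding protein. None was called in experiment 2 by edgeR, DESeq2 or limma-voom, and 1 was higher at an unadjusted p under 0.05. There, edgeR called 7.52% of all tested genes higher and 8.29% lower, and 17.3% were higher at the unadjusted level. Gdf15, a stress-induced cytokine, had 81.6 and 97.3 CPM in WT and 12.01 and 16.3 CPM in KO of experiment 1 (log2 fold change -2.67, SE 0.17, adjusted p = 0.000208). Its experiment 2 values overlapped, at 20.8 and 54.7 CPM in WT and 48.7 and 71.8 CPM in KO. Fstl3, which binds and blocks activins, went from 0.590 and 0.645 CPM to 2.06 and 2.37 CPM in experiment 1. In experiment 2, the 2 with the smallest p, Lefty1 and Gdf3, had adjusted p of 0.0842 and 0.203.

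Among the other receptors and coreceptors, 12 of 14 were tested, with 5 higher and 3 lower in experiment 1 and 1 in each direction in experiment 2. The shares of all tested genes were 27.0% higher and 28.1% lower in experiment 1, and 7.52% and 8.29% in experiment 2. The coreceptor genes Eng and Tgfbr3, for endoglin and betaglycan, were higher in experiment 1. Eng went from 14.3 and 15.7 CPM to 31.3 and 27.2 CPM, and Tgfbr3 from 1.5 and 2.26 CPM to 6.49 and 7.30 CPM, with 1.34 CPM or less in experiment 2. Eng had 42.3 and 34.4 CPM in WT and 24.1 and 12.2 CPM in KO of experiment 2 (log2 fold change -1.08, SE 0.34, adjusted p = 0.101), and its effects differed by -2.05 (SE 0.40, adjusted p = 0.00627). Bambi, a pseudoreceptor without a kinase domain that dampens the signal, had 5.78 and 11.2 CPM in WT and 3.73 and 3.75 CPM in KO of experiment 1 (log2 fold change -1.19, SE 0.34, adjusted p = 0.0324). In experiment 2 it had 1.89 and 1.87 CPM in WT and 9.49 and 18.9 CPM in KO (log2 fold change 2.91, SE 0.38, adjusted p = 0.0154). Bambi thus went in the same directions as Smad3 in both experiments. Acvr2a, an activin receptor, was lower in KO in experiment 2, from 29.0 and 28.4 CPM to 16.4 and 16.8 CPM.

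Of 26 other SMADs and SMAD regulators, 23 were tested, with 6 higher and 9 lower in experiment 1 and 5 higher and 3 lower in experiment 2. Over all tested genes, 27.0% were higher and 28.1% lower in experiment 1, and 7.52% and 8.29% in experiment 2. Skil, a corepressor that binds SMADs and is itself induced by the pathway, was lower in both experiments. It went from 311 and 300 CPM to 108 and 107 CPM in the first (log2 fold change -1.52, SE 0.06, adjusted p = 1.21e-06) and from 356 and 327 CPM to 210 and 224 CPM in the second (log2 fold change -0.65, SE 0.13, adjusted p = 0.0298). Wwp1, a ubiquitin ligase that acts on the type I receptor with SMAD7, was higher in both, from 413 and 427 CPM to 922 and 734 CPM and from 215 and 248 CPM to 476 and 409 CPM. The related corepressor Ski was higher in experiment 2, from 42.9 and 43.7 CPM to 106 and 102 CPM, and stood at 92.5 to 105 CPM in all libraries of experiment 1. Dab2, an endocytic adaptor of the receptors, went from 339 and 388 CPM to 811 and 790 CPM in experiment 1. Smad5 and Ppm1a, a SMAD of the bone morphogenetic protein branch and a SMAD phosphatase, were lower in KO in experiment 1 and higher in experiment 2, and the deubiquitinase gene Usp11 went the other way.

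Of the 15 genes of the SMAD-independent arm, which runs through TRAF6, TAK1 and the stress kinases, all were tested, with 6 higher and 5 lower in experiment 1. There, 27.0% of all tested genes were higher and 28.1% lower. In experiment 2, 2 were lower by edgeR and limma-voom and 3 by DESeq2, and none was higher by these tools, with 1 higher by edgeR at an unadjusted p under 0.05. Of all tested genes, edgeR called 8.29% lower and 7.52% higher there, and 17.3% were higher at the unadjusted level. Traf6 was higher in KO in experiment 1, from 28.2 and 29.2 CPM to 47.8 and 43.4 CPM, and lower in experiment 2, from 52.9 and 51.1 CPM to 29.7 and 30.0 CPM. Daxx, an adaptor that links the type II receptor to stress kinases, moved the same way, and its 2 WT libraries of experiment 2 were 257 and 145 CPM. Map2k6, an activator of p38, went from 0.885 and 1.14 CPM to 6.74 and 5.97 CPM in experiment 1.

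Genes known to be induced by TGF-β in many cell types were chosen as a readout list, and 21 of 23 were tested. In experiment 1, 14 were higher and 5 lower, with a median log2 fold change of 0.90, and in experiment 2, 4 were higher and 4 lower (4 and 6 by DESeq2), with a median of -0.56. By edgeR, 27.0% of all tested genes were higher and 28.1% lower in experiment 1, and 7.52% and 8.29% in experiment 2. The fibroblast marker sum of 233 and 307 CPM in KO of experiment 1 moved with this list as well, and Ctgf, Tagln, Snai2 and Timp1 were higher in the same libraries, by log2 fold changes of 4.01 (SE 0.58), 4.00 (SE 0.27), 2.80 (SE 0.44) and 2.74 (SE 0.51). The interaction test called 15 of the 21, where it called 41.6% of all tested genes. Cyr61 had 0.369 and 0.499 CPM in WT and 12.4 and 13.3 CPM in KO of experiment 1 (log2 fold change 4.88, SE 0.19, adjusted p = 1.43e-06) and 1.32 CPM or less in experiment 2. Cdkn1a, which encodes the cell cycle inhibitor p21, was lower in experiment 1, from 173 and 178 CPM to 90.5 and 97.5 CPM. Klf10, an early TGF-β response gene, was lower in experiment 1 (log2 fold change -0.55, SE 0.07, adjusted p = 0.000227) and higher in experiment 2 (1.03, SE 0.12, adjusted p = 0.0108). Id1 and Id2, inhibitors of helix-loop-helix factors, followed Klf10 in both directions, and Tsc22d1 and Tagln moved the other way. Junb was lower in both experiments, from 130 and 135 CPM to 79.4 and 82.6 CPM and from 222 and 239 CPM to 104 and 84.1 CPM. Vegfa was higher in both, by log2 fold changes of 0.30 (SE 0.07) and 0.95 (SE 0.17, adjusted p = 0.0267).

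**Figure D3:**
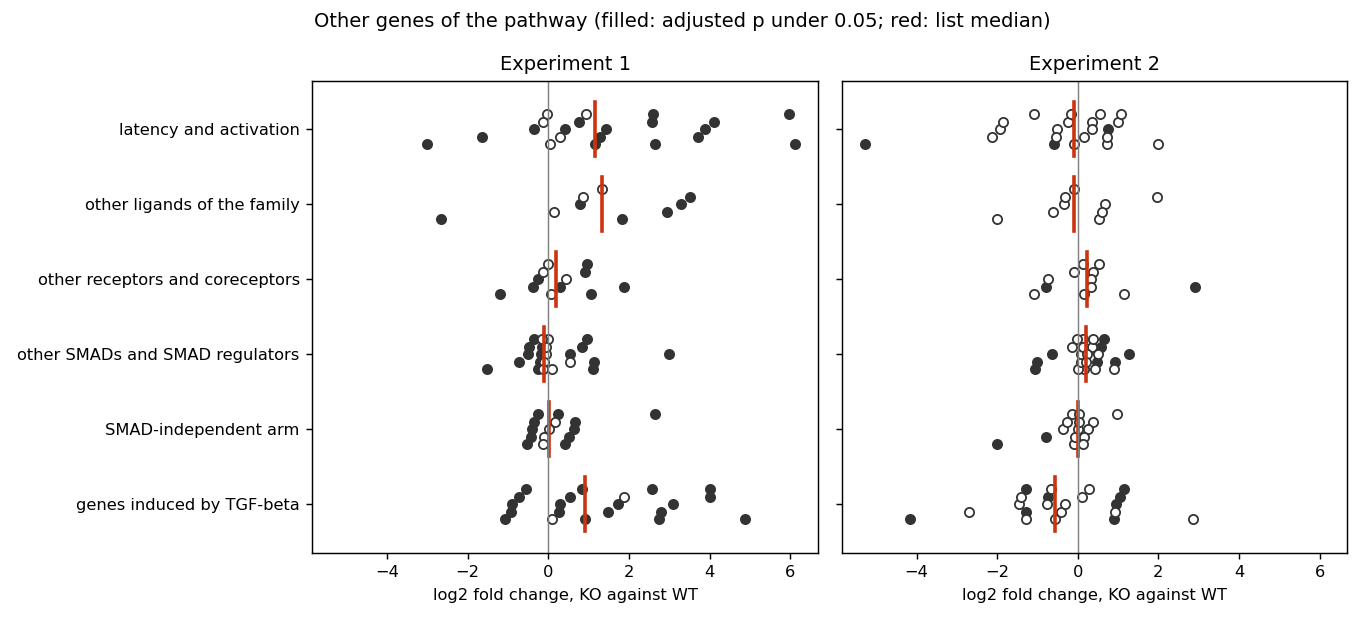
Log2 fold change of KO against WT for the tested genes of 6 other lists of the pathway, in experiment 1 (left) and experiment 2 (right), 1 point a gene, filled where the adjusted p is under 0.05, with a red line at the list median. The median of the latency and activation list was 1.17 in experiment 1 and -0.10 in experiment 2, and that of the induced genes 0.90 and -0.56.

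Markers of other cell types moved with some of these results. Fibroblast markers summed to 6.47 and 15.2 CPM in WT and 233 and 307 CPM in KO of experiment 1, and to 12.8 and 14.8 CPM in WT and 17.1 and 2.76 CPM in KO of experiment 2. All 8 tested of the 10 were higher in KO in experiment 1, with a median log2 fold change of 4.63, and none was called in experiment 2 by edgeR, where 1 was lower at an unadjusted p under 0.05 and 1 lower with DESeq2. Col1a2 led them with 81.8 and 105 CPM in KO of experiment 1, and Pdgfra had 30.3 and 34.0 CPM there, against 5.08 CPM or less for Col1a2 in WT of that experiment. The other 2 of the list, Lum and Thy1, could not be tested and had at most 0.0541 and 0.108 CPM in any library. Thbs1, Tgfbi and Tgfb2, and of the lists Tgfbr3, Bmp1, Fstl1, Grem1, Cyr61, Ctgf, Tagln, Snai2, Timp1, Lrrc32, Ltbp1, Fbn1, Thbs2 and Mmp2, were high in the same libraries, KO 5 and 6, and the part of other cells in their values was not tested.

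**Figure D4:**
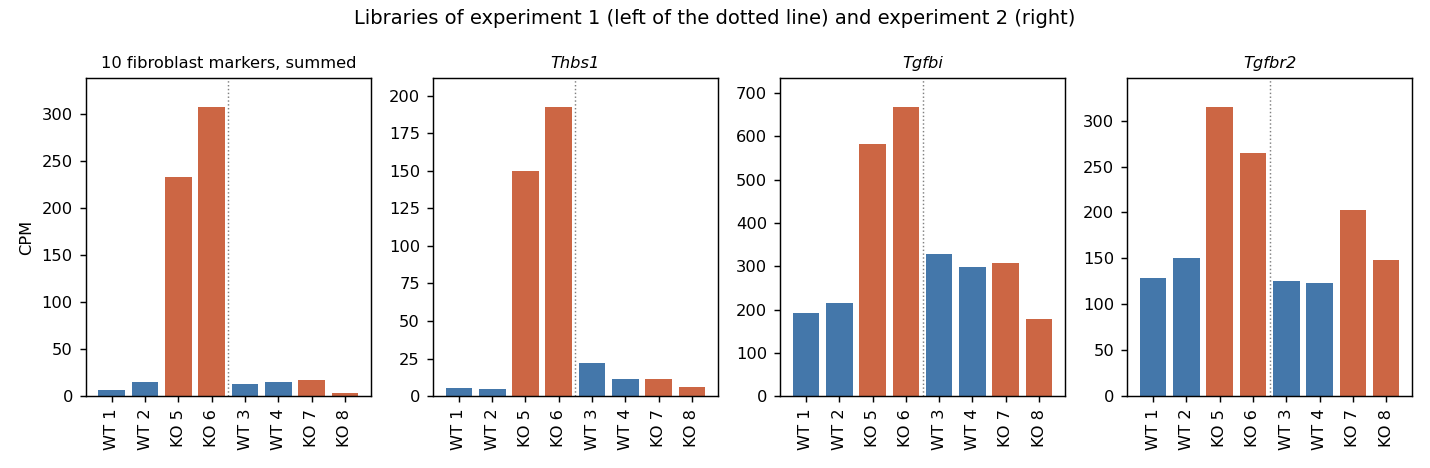
Level in CPM in each library (WT blue, KO orange) of 10 fibroblast markers summed, of Thbs1, of Tgfbi and of Tgfbr2, with experiment 1 left and experiment 2 right of the dotted line. KO libraries 5 and 6 stood highest in all 4 panels, and Tgfbr2 in KO libraries 7 and 8 lay above both WT libraries of experiment 2.

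Tgfbr2 was likewise highest in KO libraries 5 and 6, and in experiment 2 it had 203 CPM in KO library 7 and 148 CPM in KO library 8, where the fibroblast sum was 17.1 and 2.76 CPM. The part of other cells in the values of Tgfbr2 was not tested. The smooth muscle markers summed to 28.4 and 36.3 CPM in KO of experiment 1 and to 16.8 CPM or less elsewhere, with Cnn1 at or under 3 counts and Myh11 at or under 6 counts in every library. Endothelial markers summed to between 68.6 and 224 CPM, highest in WT library 3. Platelet markers, almost all Pf4, which encodes platelet factor 4, reached 72.3 and 95.0 CPM in WT of experiment 2 and 37.5 CPM or less elsewhere, with Gp9, Gp1bb and Gp6 at or under 3 counts in every library. Over all tested genes, 27.0% were higher and 28.1% lower in experiment 1, and 7.52% and 8.29% in experiment 2. Of the 10 macrophage markers, 6 were higher and 3 lower in KO in experiment 1, and 2 were higher and 2 lower in experiment 2. Among them Adgre1, for the F4/80 antigen, had 8328 and 7102 CPM in WT and 1929 and 1669 CPM in KO of experiment 1, and 2678 and 2720 CPM in WT and 4875 and 5264 CPM in KO of experiment 2. Smad3, Bambi and Adgre1 were thus lower in KO in experiment 1 and higher in experiment 2. Csf1r went from 1561 and 1232 CPM to 2538 and 2440 CPM and from 2448 and 2225 CPM to 1176 and 751 CPM, the other way, and Itgam moved with Adgre1. The part of these markers in the values of Smad3 was not tested.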

How the data were processed

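RNA-seq (TruSeq Stranded mRNA) covered 4 WT and 4 KO libraries of BMDMs in 2 experiments. The authors deposited raw counts per gene symbol, whole numbers, for each experiment, together with normalized counts, a signal equal to the deposited counts divided by 1 factor per library. Only the counts were tested. The submitters' processing notes name STAR 2.7.0f, Subread 1.6.4, featureCounts, DESeq2 1.22.1 and GRCm38. The annotation release and the use of strand in counting were not given in the sources used here. The submitters compared genotypes separately in each batch, and so did the comparisons here.

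Counts of both experiments were joined by symbol, and genes were kept by filterByExpr of edgeR 4.0.16 in R 4.3.3 (genotype as group), which kept at least 99.88% of the counts of each library. KO was compared with WT within each experiment (2 against 2 libraries) with TMM scaling, a robust quasi-likelihood fit and F test, and Benjamini-Hochberg adjustment over 14418 genes at a threshold of 0.05. The SE of a log2 fold change was taken as its absolute value over the root of the F statistic. The interaction and the additive fit used all 8 libraries. CPM is on TMM scaled totals, and log2 CPM used a prior count of 2. Replicate libraries differed by a chi-square per gene of 12.02 to 80.4, so none was a copy. Exon lengths and positions came from GENCODE M21. Alternatives were DESeq2 1.42.0, upper-quartile scaling, no filter, limma-voom (limma 3.58.1), a minimum of 10 counts in each library, a spread shared over 4 groups, each library left out, and for the additive fit no experiment term or the mean of the 2 genotype effects. The text names the 10 genes, genes of each list past the threshold in both experiments in the same direction, otherwise the 2 with the smallest p in each experiment, and the nearest profile. Of cell type markers it names those needed to say how a list moved. Smad5, Ppm1a, Usp11, Id1, Id2, Tsc22d1 and Tagln, called in opposite directions, and Inhba, Bmp1, Fstl1, Grem1, Ltbp1, Fbn1, Thbs2, Mmp2, Mmp9, Ctgf, Snai2 and Timp1 were added after their values were seen. The members and lists were chosen with earlier results of these data known.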

Additional observations from a re-analysis of the deposited data

Results flagged for a closer look

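The KO effect differed between the experiments, by the interaction test of edgeR, for 5 of the 9 tested genes, where 41.6% of all tested genes differed. The differences of the 5 are given as the effect in experiment 2 minus that in experiment 1 on the log2 scale. Smad3 differed by 2.53 (adjusted p = 0.000323), with the libraries labelled KO below WT in 2 of 2 libraries of experiment 1 and above it in 2 of 2 of experiment 2. Smad2 differed by 0.65 (adjusted p = 0.00368) and Smad4 by 0.29 (adjusted p = 0.04997), the latter lost in most fits that left out 1 library. Thbs1 differed by -6.02 (adjusted p = 0.000381) and Tgfbi by -1.99 (adjusted p = 0.00298). Mkl1 was lower in 2 of 2 libraries labelled KO in each experiment, the direction the labels give. In 20 groups of 4 libraries, 1 for each genotype and gene, no library stood apart by Dixon's test on CPM, where chance gives about 1 in 20. Each group joined both experiments, whose differences widen its range. Tgfbr1 in WT library 3 came nearest, with a ratio of gap to range of 0.794 on CPM, and on log2 CPM its ratio passed the critical value of the test.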

How the results depend on the processing

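Of 432 results of the 9 tested genes under the alternatives, 383 kept their direction and their side of the threshold, 28 lost a call, 12 gained one and 9, none of them called in any fit, changed sign. Those were Tgfb1 in experiment 1 (-0.0032 by DESeq2, -0.034 with no filter, and -0.045 to 0.052 with each library left out), Smad4 in experiment 1 (0.070 by upper-quartile scaling, -0.060 to 0.0050 with each library left out), and Tgfbr1 in experiment 2 (-0.061 without WT library 3 to 0.519 without WT library 4) and over both experiments (-0.099 without WT library 3 to 0.121 without WT library 4). In experiment 1 the counts of 4 higher and 2 lower genes of the pathway ranged from 3 to 5 and from 2 to 3, and Smad7 lost its call in 5 of 10 alternatives. With a spread shared over all 4 groups, experiment 2 gave 4 higher genes of the pathway in place of 2, adding Tgfbr2 and Smad4, and 4899 called genes in all in place of 2279. Leaving out 1 library in turn left 1 of them (1 to 1 over the 4 fits), and 232 (without KO library 8) to 1388 (without WT library 4) called genes in all. For the interaction, the genes called with each library left out ranged from 3935 without WT library 2 to 6508 without KO library 7, against 5996 with all libraries and 6725 with no filter, and the pathway genes from 4 to 6 over these fits. Over both experiments, the pathway genes that were higher numbered 1, with 2 by DESeq2, 0 with no experiment term and 5 for the mean of the 2 genotype effects, and 0 to 1 with each library left out. All called genes there numbered 1027, with 2492 by DESeq2, 4 with no experiment term (2983 at an unadjusted p under 0.05) and 4811 for the mean effect, and 243 (without WT library 1) to 1100 (without KO library 8) with each library left out. The cause was not tested. Upper-quartile scaling moved the share of higher calls from 52.2% to 67.3% in that fit. No paired analysis was possible because the WT and KO libraries share no replicate numbers. With 2 libraries a group, an arm left with 1 library was assumed to vary like the other groups. All intervals on counts cover counting error only.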
